A study of Mus musculus with 4 samples.

Results

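The genes described here encode 4 families of pre-mRNA splicing factors: every mouse gene with a curated RefSeq protein-coding transcript whose symbol starts with Srsf, Hnrnp, Sf3a or Sf3b. Membership was set by name, but the families were chosen with earlier results of these data known. There were 41 of them among 21000 protein-coding genes, namely 11 SRSF, 21 hnRNP, 3 SF3A and 6 SF3B genes. They were examined for binding of the transcription factor RUNX1, by ChIP-seq, in fetal ovaries of CD-1 mice (an outbred stock) at embryonic day E14.5. The samples were 2 RUNX1 ChIP replicates and 2 input replicates, all from ovaries without a genetic change or a treatment. Ovaries were freed of the adjoining mesonephros and pooled, 80 to 100 per ChIP by the sample labels, and 20 to 30 µg of chromatin was precipitated with 10 µl of RUNX1 antibody. The chromatin was that of the whole ovary, with germ cells, supporting cells and other somatic cells, and the peak values are not split by cell type. In the paper, a fluorescent reporter of Runx1 was seen in the supporting (pre-granulosa) cells at E14.5. At an earlier stage the paper found it absent from germ cells.

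A RUNX1 peak is a 300 bp stretch of the genome that the authors' peak caller found enriched in the reads of the RUNX1 ChIP. Its fold is the enrichment over background given by that caller, and peaks under about 4-fold were not in the list, so that weaker binding, if any, does not appear here. Of 10494 peaks, 10490 lay on assembled chromosomes, with folds from 4.01 to 358.22 and a median of 6.41. The reads of the replicates were merged before peaks were called. No fold therefore has a replicate error, the read coverage of single peaks was not analysed here, and no test between genes was made; the counts below are descriptions of 1 peak list. Each peak was assigned to the gene whose transcription start site (TSS) was nearest to the edge of the peak. Distances of a peak given as before, after or upstream of a TSS were taken from its midpoint, so such a peak can still cover the TSS. Other distances of a peak from a TSS were taken from its nearer edge, unless the middle is named.

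SR proteins, the products of the Srsf genes, bind RNA through recognition motifs and carry a domain rich in arginine and serine, and many promote the use of an exon by binding enhancer sequences within it. The hnRNPs coat nascent transcripts and often act against SR proteins at an exon. SF3A and SF3B are the protein complexes of the U2 snRNP that help it recognise the branch point of an intron. RUNX1 is a DNA-binding protein of the runt domain family and in the fetal ovary is a marker of pre-granulosa cells, the supporting cells of the follicle.

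The RUNX core, TGCGGT or TGTGGT read on either strand, is the short sequence that the runt domain recognises. The sequences below are those of the peak with the highest fold in each family and of the peaks that held more than 1 core, since these show where the core sat within the bound stretch. They are the RefSeq reference sequence of build GRCm38 (mm10) rather than that of the CD-1 animals, are written 5′ to 3′ on the strand of the gene, and have the RUNX cores in capitals (ACCGCA and ACCACA are the cores of the opposite strand). Where a peak ran into an untranslated part of an exon, that part was left out.

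Hnrnpr held the peak with the highest fold of the 44 peaks of these genes, at chr4:136311302-136311601, and 296 of its bases (chr4:136311302-136311597, plus strand) are shown.
Hnrnpr peak: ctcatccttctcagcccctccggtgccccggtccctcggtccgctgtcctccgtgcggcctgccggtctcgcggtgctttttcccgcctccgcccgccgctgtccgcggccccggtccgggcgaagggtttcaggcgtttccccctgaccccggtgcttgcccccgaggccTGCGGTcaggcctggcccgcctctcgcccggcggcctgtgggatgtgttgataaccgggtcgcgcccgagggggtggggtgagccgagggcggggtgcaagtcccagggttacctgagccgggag
The single core began at base 172 of the peak, 24 bp from its middle.

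Hnrnpf held 2 cores of opposite orientation in the peak at chr6:117907294-117907593 (plus strand), beginning at bases 136 and 221.
Hnrnpf peak: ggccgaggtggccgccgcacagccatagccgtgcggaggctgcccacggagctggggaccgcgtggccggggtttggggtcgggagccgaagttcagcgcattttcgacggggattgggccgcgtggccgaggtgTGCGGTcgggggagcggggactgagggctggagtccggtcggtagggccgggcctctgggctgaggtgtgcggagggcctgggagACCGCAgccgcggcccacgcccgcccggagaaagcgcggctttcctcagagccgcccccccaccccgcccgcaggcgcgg
Hnrnpk held 2 cores in each of 2 peaks. These were the peak in intron 1 of a transcript from the nearest TSS (chr13:58401781-58402063 of it shown, minus strand) and the peak farthest upstream of the gene (chr13:58471810-58472109, minus strand).
Hnrnpk intron 1 peak: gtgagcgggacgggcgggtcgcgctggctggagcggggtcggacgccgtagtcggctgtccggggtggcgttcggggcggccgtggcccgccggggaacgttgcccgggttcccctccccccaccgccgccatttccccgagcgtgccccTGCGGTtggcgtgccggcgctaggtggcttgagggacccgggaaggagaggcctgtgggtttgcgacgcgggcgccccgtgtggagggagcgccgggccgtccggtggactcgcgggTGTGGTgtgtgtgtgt
Hnrnpk upstream peak: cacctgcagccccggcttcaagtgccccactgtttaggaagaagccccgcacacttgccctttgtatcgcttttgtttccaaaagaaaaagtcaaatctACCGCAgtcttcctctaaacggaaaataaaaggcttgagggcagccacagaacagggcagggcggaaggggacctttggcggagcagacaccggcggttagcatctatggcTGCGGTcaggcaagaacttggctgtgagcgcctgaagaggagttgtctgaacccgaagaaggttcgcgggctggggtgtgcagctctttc
In the intron 1 peak the core TGCGGT lay 20 bp from the middle and the core TGTGGT lay 137 bp from it, at the edge of the peak.

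In SF3A, the highest fold was at a peak 5657 bp upstream of Sf3a3, at chr4:124709055-124709354 (plus strand), with a core 13 bp from its middle.
Sf3a3 upstream peak: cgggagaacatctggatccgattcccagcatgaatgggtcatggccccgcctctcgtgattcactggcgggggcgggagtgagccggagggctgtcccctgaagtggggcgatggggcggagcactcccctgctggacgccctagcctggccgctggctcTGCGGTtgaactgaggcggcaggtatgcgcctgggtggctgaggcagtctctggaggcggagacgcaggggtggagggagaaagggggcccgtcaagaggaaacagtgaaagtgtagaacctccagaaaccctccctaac
The highest fold in SF3B, at Sf3b2, had no RUNX core in its 300 bp. The 192 bases of it that begin at the start codon (chr19:5295203-5295394, minus strand) are shown for contrast.
Sf3b2 peak: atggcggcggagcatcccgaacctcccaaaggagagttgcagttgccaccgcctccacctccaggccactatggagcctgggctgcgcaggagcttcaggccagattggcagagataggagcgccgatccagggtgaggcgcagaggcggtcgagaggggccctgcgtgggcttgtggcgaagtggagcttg
The Sf3b2 peak held a YY1 site (AAGATGGCG) across the start codon, 58 bp after the TSS, and an ETS site (CCGGAAGT) 13 bp before the TSS.

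In SRSF, both cores of the Srsf6 peak (chr2:162931492-162931791, plus strand) lay in the 5′ untranslated part of exon 1, so each is shown with the 8 bases on either side of it, beside the core in the coding part of exon 2 of Hnrnpab (minus strand), which had the next highest fold of these genes after Hnrnpr and was added after its value was seen.
Srsf6 core at 48 bp after the TSS: gccgccgcTGCGGTgtgaggcg
Srsf6 core at 94 bp after the TSS: gcacccgcACCGCAgccctgcc
Hnrnpab core at 468 bp after the TSS: ggaccacgACCGCAccgagcgg

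Of the 41 splicing factor genes, 33 (80.5%) were the nearest gene of at least 1 RUNX1 peak, against 39.1% of all protein-coding genes. Because the families were chosen with earlier results of these data known, this and the shares below only describe them. For 32 of the 41 (78.0%) such a peak lay within 1 kb of the TSS, against 34.4% of all protein-coding genes. A peak with a fold of at least 8 was assigned to 14 of the 41 genes (34.1%), against 13.8% of all. More than 1 peak was assigned to 7 of the 41, against 6.13% of all. These gaps were smaller when genes without a peak were left out. Of the 33 splicing factor genes with a peak, 42.4% then had one of 8-fold or more, against 35.3% of the 8203 protein-coding genes. Several peaks were held by 21.2% of these 33, against 15.7% of the 8203. A peak was assigned to 11 of 11 SRSF, 17 of 21 hnRNP (81.0%), 2 of 3 SF3A and 3 of 6 SF3B genes. The families are too small for their shares to be set in order, and no test between them was made.

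The starts of most of these genes are rich in CpG, and this moved with the share of genes that had a peak. Windows from 250 bases before to 50 bases after a TSS were used, and a gene can have several. A gene was counted as CpG-rich if any of its windows had a GC content of at least 55% and an observed-to-expected CpG ratio of at least 0.65. This held for 32 of the 37 splicing factor genes with such a window. Among the 7139 protein-coding genes with a start of this kind 64.4% were nearest to a peak, against 20.4% of the 9714 genes with windows but none of this kind. Of the 32 splicing factor genes with a CpG-rich start, 29 (90.6%) had a peak. The part of base composition in the count of splicing factor genes was not tested.

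**Figure D1:**
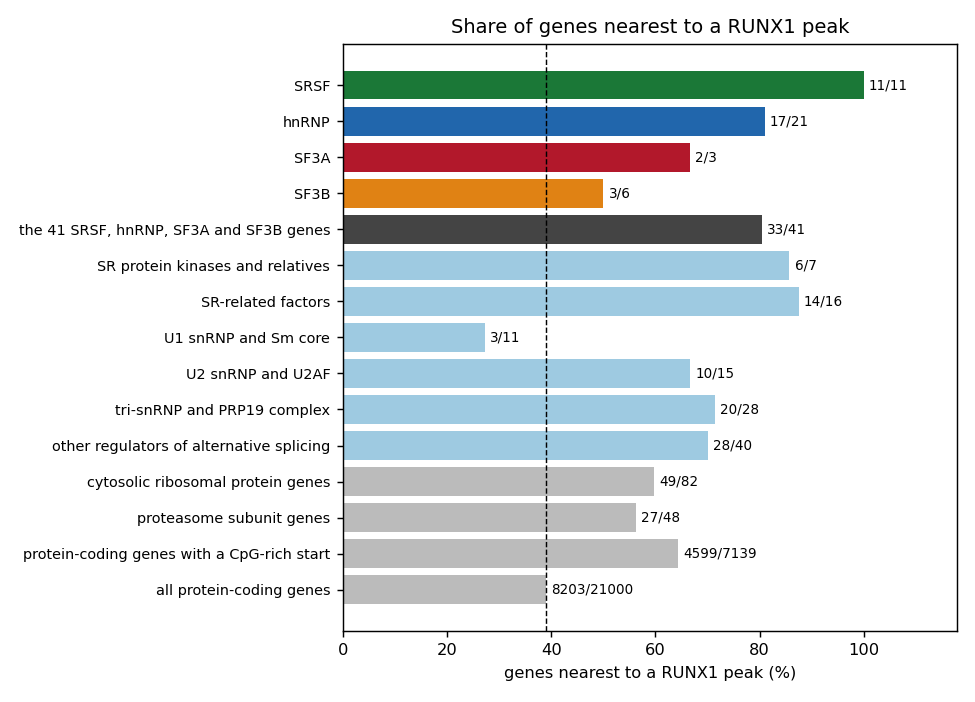
Share of the genes of each list, in percent, whose TSS was the nearest to at least 1 RUNX1 peak; each bar is 1 list, the counts stand beside it and the dashed line is the share of all protein-coding genes. SRSF (11 of 11), the 41 genes together (33 of 41) and 5 of the 6 other splicing lists lie to the right of the line at 39.1%, while U1 snRNP and Sm core (3 of 11) lies to the left.

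In fold, the peaks of the splicing factor genes lay in the range of those of other genes. The strongest peak of the 33 bound genes had a median fold of 7.40 (quartiles 6.48 and 10.64), beside 6.66 (quartiles 5.16 and 9.26) over the 8203 protein-coding genes with a peak. The 44 peaks fell into the quartiles of fold of all peaks as 9, 7, 18 and 10, from the lowest to the highest. The medians by family were 7.40 for SRSF, 7.96 for hnRNP and 6.61 for SF3B, and the 2 bound SF3A genes were at 4.56 and 11.72. The spread was widest in hnRNP, from 4.40 at Hnrnpll to 48.75 at Hnrnpr, and in SRSF it ran from 6.48 to 18.14.

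**Figure D2:**
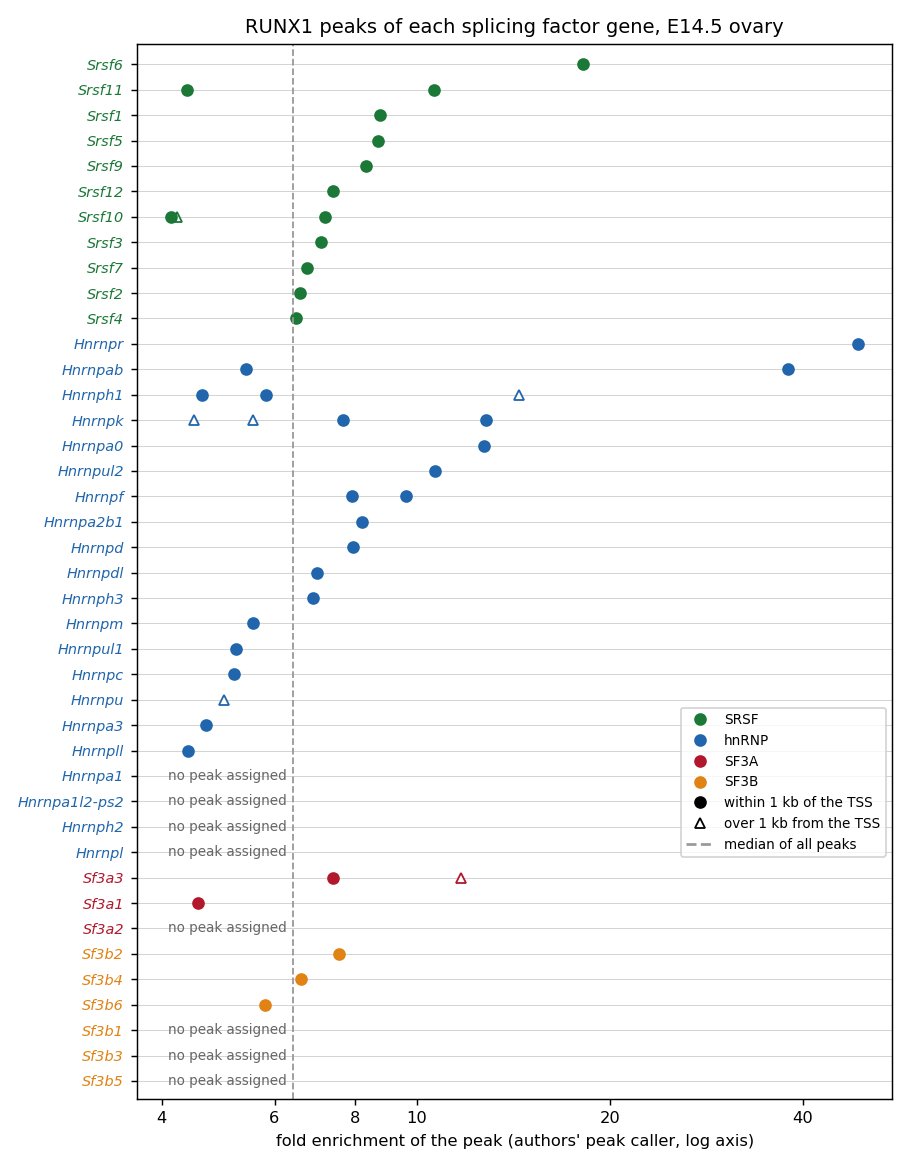
Fold enrichment of every RUNX1 peak assigned to each of the 41 splicing factor genes, on a log axis, ordered by the strongest peak within each family. Filled circles are peaks within 1 kb of the TSS, open triangles lie farther away, and the dashed line is the median of all single peaks (6.41). The strongest peak of each of the 11 SRSF genes lies to the right of it. Those of Srsf2 (6.57) and Srsf4 (6.48) are below 6.66, the median of the strongest peak over all protein-coding genes with a peak. The hnRNP genes run from 4.40 to 48.75 and 8 genes have no assigned peak.

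In the SRSF family each gene had its strongest peak within 1 kb of the TSS. Srsf6, which encodes an SR protein that enhances exon use, had the highest fold, 18.14, with the middle of the peak 133 bp after the TSS, in the 5′ untranslated part of exon 1. It ranked 415 among all peaks. Next was Srsf11, whose product (p54) contacts the splice site factor U2AF, with a fold of 10.64 in the coding part of exon 1. The Srsf11 peak is shared, since the TSS of Lrrc40 lies 76 bp away on the opposite strand and both starts were covered. A second Srsf11 peak, of fold 4.38, lay 306 bp after the other of its 2 curated TSSs.

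Srsf1, the founding SR protein (SF2/ASF), had a fold of 8.75 at 740 bp after the TSS in intron 1, the farthest downstream of the peaks within 1 kb. Srsf5 (8.70) also had its peak in intron 1, 344 bp after the TSS, and Srsf9 (8.33) in the coding part of exon 1, 239 bp after it. Without replicate values these 3 genes cannot be set in order. Of the sequence within 500 bp of the Srsf5 TSS, 93.0% of the 75-base stretches occur once in the genome, against 100% at the other SRSF genes, and reads were placed at unique positions only.

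The remaining 6 SRSF genes lay between 6.48 and 7.40. Srsf12 had a fold of 7.40 in intron 1. Srsf10, whose product represses splicing when dephosphorylated, had a fold of 7.20 in the 5′ untranslated part of exon 1, a weaker peak of 4.14 in intron 1 and another of 4.23 located 27378 bp upstream. Srsf3, the smallest SR protein, had a fold of 7.08 at 136 bp before the TSS. Srsf7, which takes part in mRNA export as Srsf3 does, had a fold of 6.75 in intron 1. Srsf2 (SC35), an SR protein of nuclear speckles, had a fold of 6.57 in the coding part of exon 1. A stronger peak near Srsf2, of fold 14.28 and 357 bp from its TSS, was assigned to Mfsd11, which starts 668 bp away on the opposite strand. Srsf4 closed the family with a fold of 6.48 at 108 bp before the TSS.

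Among the hnRNP genes, Hnrnpr and Hnrnpab stood at folds more than 2 times that of any other gene of the 4 families. Hnrnpr, which encodes an RNA-binding protein closely related to SYNCRIP, had 1 peak of fold 48.75, rank 33 of all peaks, with a p-value of 8.25e-102 from the authors' peak caller. Its midpoint lay 147 bp before the second of the 2 curated TSSs, which the peak covered. That midpoint was within intron 1 of the transcripts that start at the other. Hnrnpab, whose product binds both RNA and CArG-box DNA, had a peak of fold 37.95 and rank 58 in the coding part of exon 2, centred 414 bp after the TSS. It had another peak of fold 5.41 on the other side of the TSS, 292 bp before it.

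The next 3 hnRNP genes were at 12.75 to 14.44. Hnrnph1, which binds runs of G, had its strongest peak (14.44) 5441 bp upstream and weaker ones of 5.82 and 4.63 at 66 and 284 bp after the nearest of its 5 curated TSSs. Hnrnpk, a KH domain protein that binds C-rich RNA and DNA, had more peaks than any other of the 41 genes. Its 4 peaks had folds of 12.83 in intron 1, 7.68 over the TSS, 5.55 at 49833 bp upstream and 4.50 at 68616 bp upstream. The peak over its TSS was also nearest to Rmi1, which starts 79 bp away on the opposite strand. Hnrnpa0, a member of the A/B group, had a fold of 12.75 at 280 bp before the TSS.

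Another 4 hnRNP genes had folds near the 7.96 median of the family or above it. Hnrnpul2 had a fold of 10.68 at 535 bp after the TSS, in exon 1. Hnrnpf, which like Hnrnph1 binds G runs, had folds of 9.63 and 7.93 at peaks before 2 different TSSs, both inside intron 1 of its longer transcripts. Hnrnpa2b1, an A/B protein that also directs RNA transport, had a fold of 8.21 with the middle of the peak 4 bp from the TSS, so that the peak covered it. Hnrnpd (AUF1), which binds AU-rich elements and speeds mRNA decay, had a fold of 7.96 in exon 1.

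The lower part of the family lay between 4.40 and 6.98. Hnrnpdl, a relative of Hnrnpd, had a fold of 6.98 in the coding part of exon 1. A peak of fold 5.55, 291 bp from the Hnrnpdl TSS, was assigned to Enoph1, which starts 772 bp away on the opposite strand. Hnrnph3 had a fold of 6.89 at 212 bp before the TSS. Hnrnpm (5.55, intron 1), Hnrnpul1 (5.23, 275 bp before the TSS) and Hnrnpc (5.18, 317 bp before the TSS) were below the 6.41 median of all peaks. Hnrnpc is the protein that binds uridine tracts and makes up the core of the hnRNP particle. Hnrnpa3 (4.69) had its peak in intron 1, and a stronger one of 10.49, 261 bp from its TSS, belonged to the opposite-strand gene Gm39859. Hnrnpll, known for the exon choice of Ptprc in T cells, had the lowest fold among the strongest peaks of the 33 genes, 4.40. Hnrnpu, a scaffold protein that binds chromatin as well as RNA, was the only one of the 33 without a peak within 1 kb, its peak of fold 5.0 lying 31233 bp upstream. A stronger peak, of fold 14.25, lay nearer to the Hnrnpu TSS, at 18783 bp, but was assigned to the neighbouring gene.

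In SF3A, Sf3a3 had the upstream peak of fold 11.72 and another of 7.40 at 116 bp before its TSS, and Sf3a1 had a fold of 4.56 in the coding part of exon 1. Sf3a1 starts 61 bp from Ccdc157, which lies on the opposite strand. In SF3B, Sf3b2 had a fold of 7.56 over the TSS, Sf3b4 had 6.61 in intron 1 and Sf3b6, a small subunit that can be crosslinked to the branch point adenosine, had 5.79 at 96 bp before the TSS. The SF3B peaks were thus near the median of all peaks.

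No peak was assigned to 8 of the 41 genes, and these were of different kinds. Sf3a2 and Sf3b3 did have a peak at their start, but the TSS of the neighbour on the opposite strand was nearer to it. At Sf3a2 the peak had a fold of 14.24 and lay 72 bp from the TSS, and it was assigned to Plekhj1. At Sf3b3 the peak had a fold of 7.12 and lay 55 bp from the TSS, and it was assigned to Cog4. With such peaks counted for both genes, 34 of the 41 genes had a peak within 1 kb of a TSS, against 7862 of the 21000 protein-coding genes.

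For the other 6 genes the nearest peak lay far from the start. The distance was 14912 bp at Hnrnpa1, the prototype of the exon-repressing A/B proteins, and 60414 bp at Sf3b1, the subunit that grips the branch point. It was 60559 bp at Sf3b5, 85224 bp at Hnrnph2, 93853 bp at Hnrnpl, which binds CA repeats, and 2697351 bp at Hnrnpa1l2-ps2. The last carries the name of a pseudogene, and 64.8% of the 75-base stretches around its start occur once in the genome. For 36 of the 41 genes, Sf3b1, Sf3b5, Hnrnph2 and Hnrnpl included, all such stretches were unique, and at Hnrnpa1 97.5% were. Only exact matches on assembled chromosomes were counted, so near-identical copies are not covered, and whether reads could be placed at these starts was not tested. Of the 8 genes, 7 had a window at the start, and 3 of these were CpG-rich. In the window with the highest CpG ratio of each gene, their median GC content was 50.0%, against 68.5% in the 30 genes with a peak and a window.

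A start on the opposite strand within 1 kb was present at 14 of the 41 genes, of which 10 had an assigned peak. The 4 of these 14 that had none were Sf3a2, Sf3b3, Hnrnpa1 (beside Cbx5) and Hnrnph2 (beside Gla). Among the 27 genes without such a neighbour 23 had a peak. The same shares over all protein-coding genes were not computed, so these counts only describe the 41 genes. At these paired starts the nearest-gene rule decides which gene receives the peak, and the peak list does not say which of the pair, if either, RUNX1 acts on.

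Most of the peaks lay at the start of the gene and after it. Of the 44 peaks, 38 were within 1 kb of the TSS and 13 of these covered it (34.2%), against 46.3% of all 7767 assignments of a peak to a protein-coding TSS within 1 kb. The midpoint lay downstream for 26 of the 38 (68.4%), against 69.5% of all, with a median of 135 bp after the TSS (range -361 to 740), against 102 bp. Downstream midpoints were 11 of 13 in SRSF and 12 of 20 in hnRNP. Places were read in a transcript that starts at the assigned TSS. There 13 peaks had their midpoint in exon 1, 12 in intron 1, 1 in exon 2 and 18 upstream of that TSS. In the longest transcript of a gene the place can differ, and the Hnrnpk peak of intron 1 lies in intron 3 there. Because some genes have several starts, 29 of the 38 peaks within 1 kb were inside the body of their own gene.

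**Figure D3:**
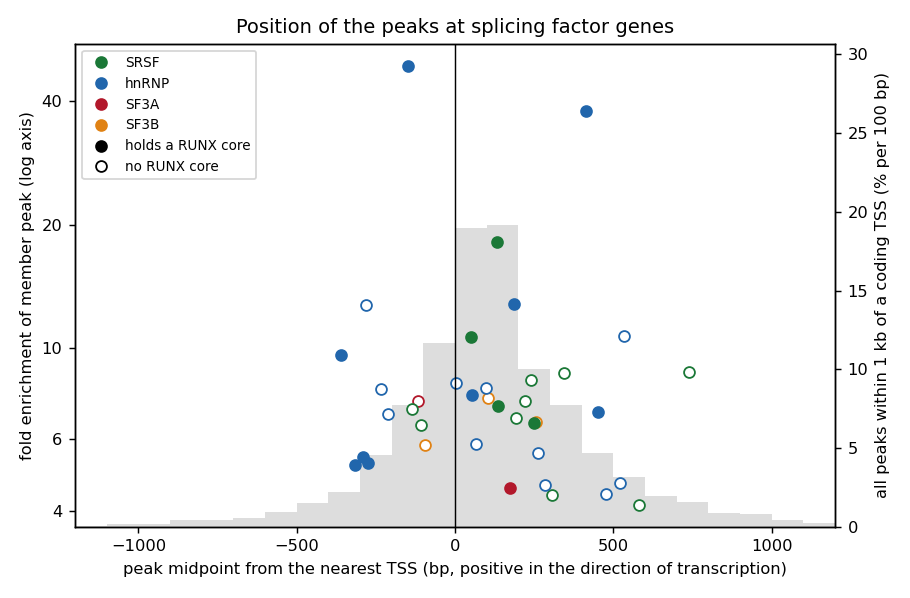
Fold enrichment (left, log axis) of the 38 peaks within 1 kb against the distance of their midpoint from the TSS in bp, positive in the direction of transcription, coloured by family and filled where the peak holds a RUNX core. The grey bars (right axis) give the percent of all peaks within 1 kb of a protein-coding TSS in each 100 bp; 26 of the 38 midpoints lie to the right of the TSS, and the Hnrnpr (48.75) and Hnrnpab (37.95) peaks lie on opposite sides of it.

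The peaks within 1 kb had a GC content of 57.7% to 77.0% with a median of 67.7%, beside 68.0% for all peaks at protein-coding starts. Their median CpG ratio was 0.949 beside 0.856, and their median fold 7.14 beside 6.48. In composition the peaks of the splicing factor genes were thus close to those at other genes, with a somewhat higher CpG ratio.

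The remaining 6 peaks lay more than 1 kb from the TSS, at Srsf10, Hnrnph1, Hnrnpk (2 peaks), Hnrnpu and Sf3a3. Their folds ran from 4.23 to 14.44 with a median of 5.28. At Hnrnph1 and Sf3a3 the distant peak had a higher fold than any peak at the TSS of the same gene, and at Srsf10 and Hnrnpk it had a lower one than the strongest there. Assignment over such distances rests on the nearest TSS alone.

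A RUNX core was present in 18 of the 44 peaks (40.9%), beside 39.9% of all 10490 peaks. These 18 peaks held 22 cores and belonged to 14 genes, of which 8 were hnRNP, 4 SRSF and 2 SF3A. No SF3B peak held a core. Of the 6 distant peaks, 4 held one. Within 1 kb of the TSS the share was 36.8% (14 of 38), against 34.0% of the 7595 peaks at protein-coding starts and 21.2% of 20488 RefSeq windows of the same length at gene starts. The share of peaks of these genes with a core was therefore near that of all peaks.

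By form of the core, TGCGGT was in 28.9% of the 38 peaks (11 peaks), in 23.4% of peaks at all protein-coding starts and in 7.60% of the start windows. TGTGGT was in 10.5% (4 peaks), 13.0% and 14.4%. The form with C was thus the more frequent in the peaks, for the splicing factor genes as for all, and the form with T in the windows of all genes. The form with C holds a CpG, and the windows were not matched to the peaks in base composition or in position. The part of these in the difference was not tested. In SRSF the cores were in the peaks of Srsf2, Srsf6, Srsf10 and Srsf11, while the 7 other genes, Srsf1 and Srsf5 among them, had peaks without one. The absence of these letters from 300 bp does not decide whether RUNX1 bound there.

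Consensus sites of other factors were read on both strands in the same 38 peaks. The NFY site CCAAT was in 31.6% of them, in 22.2% of peaks at all protein-coding starts and in 38.4% of the start windows. A CTCF site, CNAGNNGGC with C or T, A or G, and G or T at its N bases in turn, was in 4 peaks (10.5%), against 4.66% and 4.78%. The 4 were at Srsf10, Hnrnph3, Hnrnpk and Hnrnpul1. The ETS site CCGGAAGT was in 3 peaks (7.89%, against 5.94% and 5.31%), at Srsf4, Sf3a3 and Sf3b2. The YY1 site was in 2 peaks (5.26%, against 3.13% and 1.90%), both of U2 snRNP subunits, at Sf3a1 and Sf3b2. Counts this small cannot separate the splicing factor genes from other genes.

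TEAD sites, AGGAATG or GGGAATG, were in 3 of the 38 peaks (7.89%, against 5.32% of peaks and 8.57% of windows). GATA sites, AGATAA or TGATAA, were in 3 as well (7.89%, against 4.09% and 15.4%), that of Hnrnpr among them. No match was found for the forkhead sites TATTTAC or TGTTTAC (2.16% of peaks at all protein-coding starts), the NR5A sites CAAGGCCA or CAAGGTCA (2.59%) or the NRF1 site GCGCATGCG (1.55%).

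**Figure D4:**
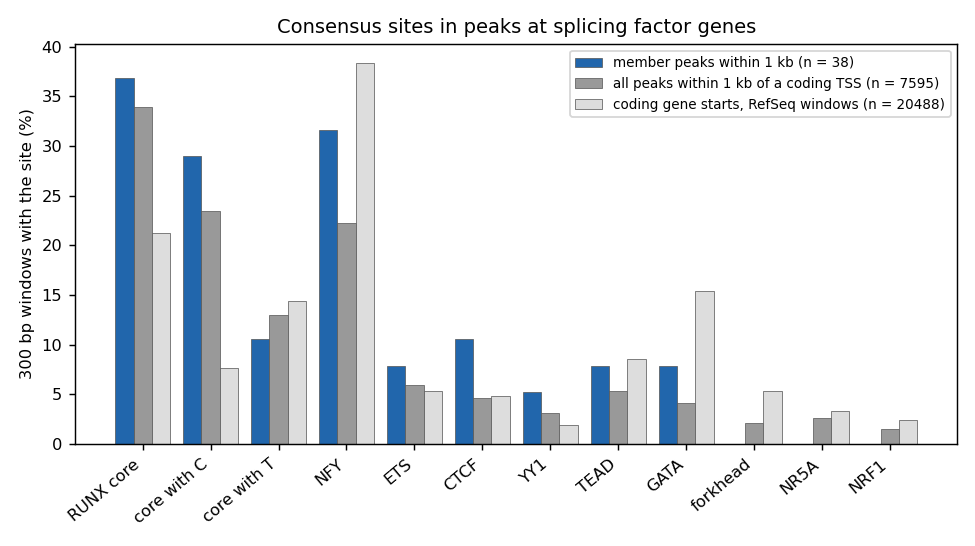
Percent of 300 bp windows that hold each consensus site, for the 38 peaks of splicing factor genes within 1 kb of the TSS (blue), all 7595 peaks within 1 kb of a protein-coding TSS (grey) and 20488 windows at coding gene starts (light grey). For the RUNX core the 3 bars stand at 36.8%, 34.0% and 21.2%, and for its form with C at 28.9%, 23.4% and 7.60%.

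Genes of the wider splicing machinery, in 6 lists of 117 genes in all, were nearest to a peak in 81 cases (69.2%), against 39.1% of all protein-coding genes. SR protein kinases, which phosphorylate SR proteins and control where they reside, had 6 of 7, led by Srpk2 (19.44) and Clk3 (17.36), with Clk1 at 6.94. SR-related factors had 14 of 16, led by Srrm2 (20.98), a scaffold of nuclear speckles, Scaf8 (19.31) and Luc7l2 (18.51). By count, the shares of these lists lay between those of the hnRNP and SRSF families, but the lists and families are too small to be set in order.

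The U2 snRNP and U2AF list had 10 of 15, with U2af2, the subunit that binds the polypyrimidine tract, at 30.55, Dhx15 at 11.93 and U2surp at 10.28. The tri-snRNP and PRP19 complex list had 20 of 28, led by Xab2 (20.98, at a peak 11936 bp from its TSS), Eftud2 (17.28) and Cwc15 (14.35). Other regulators of alternative splicing had 28 of 40, led by Ptbp2 (14.81), Nono (13.88) and Qk (13.42). The U1 snRNP and Sm core list was the exception, with 3 of 11 genes: Snrnp70 (26.12), Snrpd1 (6.05) and Snrpb (4.06).

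Genes of other cell machines, for comparison, were nearest to a peak for 49 of 82 cytosolic ribosomal protein genes (59.8%, median fold of the strongest peak 7.40) and 27 of 48 proteasome subunit genes (56.2%, median 8.56). The shares of the 41 splicing factor genes and of the 117 genes of the wider lists together lay above these, while that of the U1 snRNP and Sm core list (27.3%) lay below, and the median fold of the 41 genes (7.40 over those with a peak) did not.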

How the data were processed

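RUNX1 ChIP-seq of pooled E14.5 CD-1 ovaries was analysed from the deposited peak list. By the study's methods, the authors mapped single-end reads to mm10 at unique positions, removed duplicates, merged the 2 RUNX1 replicates, called peaks, reset each to 300 bp and kept those enriched over the input and over nearby signal. Tools given in the processing notes of the submitters were HOMER 4.9, bedtools 2.24.0, Bowtie 1.2 and Picard 1.110. Each deposited peak carries a fold (a linear ratio) and a p-value from the authors' peak caller. The read coverage behind single peaks was not analysed here.

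Gene models were 45756 curated RefSeq transcripts of 26180 genes (GRCm38.p6). Peaks were assigned to the TSS nearest to the peak edge, with ties kept, and 4 peaks off assembled chromosomes were left out. All 41 genes were named, with up to 3 genes of highest fold from each other splicing list, and neighbours starting within 1 kb or sharing a peak. Members and lists were chosen with earlier results of these data known. The CpG-rich, ribosomal and proteasome comparisons and the second-ranked Hnrnpab core were chosen after the peaks were seen. The assignment and site search, in Python 3.11.15 with numpy 2.4.6 and pandas 2.3.3, were checked on simulated data. The alternatives tried were higher limits (fold of at least 8, p-value under 1e-20), other assignment rules, and other forms and windows of the RUNX core.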

Additional observations from a re-analysis of the deposited data

How the results depend on the processing

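With peaks of fold at least 8, the counts of genes nearest to a peak became 14 splicing factor genes, 2897 protein-coding genes and 38 of the other splicing genes, and the splicing factor genes kept 12 peaks within 1 kb of the TSS and 8 with a RUNX core. With peaks of p-value under 1e-20 they became 3166 protein-coding and 52 other splicing genes, with 22 peaks within 1 kb and 11 with a core, while 22 splicing factor genes remained. Counting a gene only where a peak lay over a TSS gave 13 splicing factor, 3566 protein-coding and 40 other splicing genes, and 13 of the peaks of splicing factor genes overlapped the TSS. A RUNX core was found in 5 peaks with TGTGGT alone and in 9 in the central 100 bp. Under each of these gene-counting settings the share of splicing factor genes exceeded that of protein-coding genes, and under a peak over a TSS it was 31.7%, below the 34.2% of the other splicing genes. Distance from the midpoint, coding TSSs alone, and a TSS within 10 kb or 1 kb gave 33 or 34 splicing factor genes.

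No paired analysis was possible because the replicates were merged before peaks were called, and leaving out a replicate could not be done for the same reason. Merged depth sets which peaks pass the limits, so a gene with no peak nearby had none past them at this depth.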
